A study of Homo sapiens with 8 samples.

Results

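The stretch of human chromosome 20 from CEBPB to PTPN1 was examined for binding of the chromatin remodeller CHD4, as chr20:48780000-49220000 in hg19 coordinates (440.0 kb). It was selected on the peaks themselves, for their density: the bounds of the interval and of 2 dense stretches of CHD4 peaks between the genes were set with peak positions of these libraries known. CEBPB was taken as chr20:48807120-48809227 and PTPN1 as chr20:49126891-49201300. The 6 CHD4 peak lists held 185 peaks there, of 36876 in all. Overlapping peaks (1 bp or more) were joined, which gave 54 regions in the interval, of 18808 in the genome. That is 123 regions per Mb, against 12.1 per Mb over the whole of chromosome 20, and this density is a description of how the interval was chosen and not a result. The nearest regions outside lay 18.6 kb before its start, in 5 libraries, and 32.3 kb after its end, in 4 libraries.

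All libraries came from SCC9, an established squamous carcinoma line, grown in DMEM/F12 with serum and hydrocortisone and fixed with formaldehyde. The DOC1 group held 3 CHD4 libraries from cells labelled +DOC1, and the lacZ group 3 CHD4 libraries from cells labelled -DOC1. The labels do not say how the DOC1 status was made, whether 1 clone was used, or whether libraries 1 to 3 stem from separate cultures, so the spread between them may be technical. Each state also had 1 IgG library, not used here. The design asks how binding of NuRD, the nucleosome remodelling and deacetylase complex, differs between cells with and without its subunit DOC1. Values per library are given in the order 1, 2, 3 within each group.

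CHD4 is the ATP-driven motor of NuRD, a complex that also holds the histone deacetylases HDAC1 and HDAC2, and DOC1 (also CDK2AP1) is one of its small subunits. CEBPB encodes C/EBPβ, a leucine zipper transcription factor of inflammation and of fat cell and epithelial differentiation, from a gene without introns. PTPN1 encodes PTP1B, a tyrosine phosphatase anchored to the endoplasmic reticulum that dephosphorylates the insulin receptor and JAK2. In the RefSeq gene order of GRCh38.p14, 9 entries stand between the genes, of which 7 are long noncoding RNAs, PELATON, LINC01270 and LINC01271 among them, and 2 are pseudogenes (RN7SL636P and COX6CP2). CEBPB-AS1 comes just before CEBPB, and MIR645 and RIPOR3 come after PTPN1. The lists carry no histone mark or transcript level, so whether a region is an enhancer, and of which gene, was not measured.

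The promoters of both genes are shown because a CHD4 region lay near each start, in DOC1 1 alone for CEBPB and in 5 libraries for PTPN1. For CEBPB the window shown is the downstream one of 2 RefSeq windows. Sequences are from RefSeq (GRCh38.p14, plus strand), which is another build than that of the peaks, so peaks were not placed on their letters. Capitals mark letters found by a search of both strands for the GC box, spelled GGGCGG, for the box named after its letters CCAAT, for the TATA box, spelled TATAAA, and for the core of a cyclic AMP response element (CRE), spelled TGACG.
CEBPB promoter, chr20:50190580-50190879: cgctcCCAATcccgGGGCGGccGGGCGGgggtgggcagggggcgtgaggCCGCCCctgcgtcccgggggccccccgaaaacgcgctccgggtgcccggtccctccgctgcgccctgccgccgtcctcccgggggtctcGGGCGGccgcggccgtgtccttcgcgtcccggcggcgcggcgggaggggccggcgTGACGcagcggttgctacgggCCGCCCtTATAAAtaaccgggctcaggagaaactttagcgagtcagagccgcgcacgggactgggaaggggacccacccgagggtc
PTPN1 promoter, chr20:50510133-50510432: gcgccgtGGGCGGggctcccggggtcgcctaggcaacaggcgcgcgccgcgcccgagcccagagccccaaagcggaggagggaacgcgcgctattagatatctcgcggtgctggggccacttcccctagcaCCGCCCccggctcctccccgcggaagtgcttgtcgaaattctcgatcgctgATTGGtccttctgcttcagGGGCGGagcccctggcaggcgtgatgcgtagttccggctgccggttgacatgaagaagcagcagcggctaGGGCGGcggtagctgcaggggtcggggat
The CEBPB window held 5 GC boxes, 1 CCAAT box, 1 TATA box and 1 CRE core. The PTPN1 window held 4 GC boxes and 1 CCAAT box, and no match to TATAAA or TGACG. A GC box was present in 45% of 35116 RefSeq promoters of the same length, a CCAAT box in 34.6%, TATAAA in 11.5% and TGACG in 24.6%. Neither window matched TGANTCA (AP-1 site, in 7.71% of promoters) or TTGCNNAA (C/EBP site, in 10.5%). Both were rich in CpG, with 43 CpG dinucleotides in the CEBPB window and 33 in the PTPN1 window, against a median of 14 over all promoters. The upstream CEBPB window, chr20:50190333-50190632, is not shown. It held 6 GC boxes, 1 CCAAT box and 31 CpG dinucleotides, with no match to TATAAA or TGACG. The spacing of the RefSeq gene starts, 319800 bp, is that between this upstream window and the PTPN1 window. The TATA box, CRE core and CpG count given for CEBPB thus depend on the window taken.

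With and without DOC1, CHD4 peaks lay scattered along the interval as far as chr20:49157904. They covered from 1.51% of it in DOC1 2 to 6.63% in DOC1 3. DOC1 libraries had 38, 17 and 46 peaks there, and lacZ libraries 38, 18 and 28. The means were 33.7 ± 15.0 peaks in DOC1 and 28.0 ± 10.0 in lacZ (SD, n = 3 each), a difference of 5.67 peaks, less than either SD. Without DOC1 3, the longest list, the difference turned to -0.5 peaks. Peaks covered 15.2, 6.65 and 29.2 kb of the interval in DOC1 libraries and 23.1, 8.88 and 11.7 kb in lacZ libraries, with means of 17.0 ± 11.4 kb and 14.6 ± 7.54 kb. That difference of 2.43 kb turned to -3.65 kb without DOC1 3 and to -0.416 kb without lacZ 2. Library 2 of each group was the sparse one, and its whole list was the shortest of its group, with 3448 peaks for DOC1 2 and 2812 for lacZ 2.

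**Figure D1:**
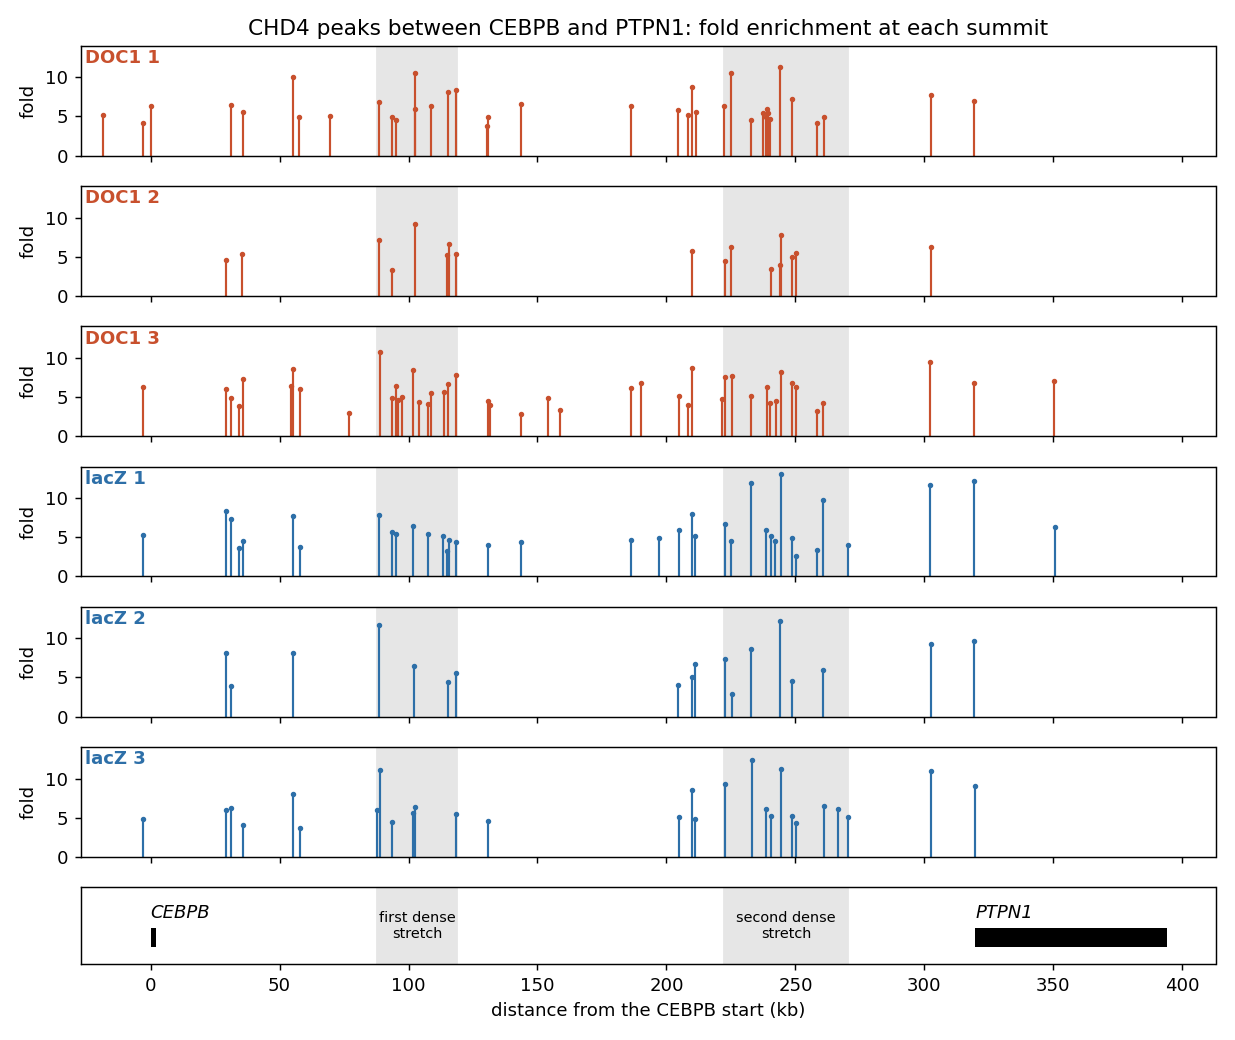
CHD4 peaks along the interval in the 3 DOC1 libraries and the 3 lacZ libraries. Each line stands at a peak's summit, by its distance from the CEBPB start in kb, and its height is the fold enrichment that the authors' peak caller gave it; grey bands are the 2 dense stretches. All 6 libraries have peaks in both bands, and 5 of 6 have a peak just before PTPN1.

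As a share of its whole list, the interval took 0.485%, 0.493% and 0.417% of the peaks of DOC1 libraries and 0.541%, 0.64% and 0.593% of those of lacZ libraries. Every DOC1 share lay below every lacZ share (0.465 ± 0.0418% and 0.591 ± 0.0497%). In lists reduced to the 2812 peaks with the lowest p-values the difference turned, to 0.0356 percentage points higher in DOC1. The SD between libraries was 0.0459 percentage points in the full lists and is not given for the reduced ones. The cause was not tested. Chromosome 20 as a whole showed the same order, with 4.34 ± 0.902% of DOC1 peaks and 5.41 ± 0.372% of lacZ peaks. Within chromosome 20 the interval took 10.1%, 14.9% and 8.44% of DOC1 peaks and 10.9%, 11.3% and 10.6% of lacZ peaks, and these shares overlapped.

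Many regions of the interval recurred across libraries. Of the 54 regions, 8 were present in all 6 libraries (14.8%, against 2.75% of all regions of the genome), and 20 in 5 or 6 (37.0%, against 7.45%). Regions in 1 library alone numbered 16 (29.6%, against 56.2%). At least 1 library of each group held 35 regions (64.8%, against 27.8%). The interval was chosen for crowded peaks of these lists, so these shares describe it and support nothing. The absence of a peak was often that of a short list: of the 12 regions in 5 libraries, DOC1 2 was the missing one at 6, lacZ 2 at 3, lacZ 3 at 2 and DOC1 1 at 1.

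No region had a peak in all 3 DOC1 libraries and none in lacZ, a pattern of 0.978% of all regions, and none had the opposite pattern, which 1.18% of all regions had. Such a split of 3 against 3 would give a Fisher's exact p of 0.1, the smallest this design allows, so no single region was tested. The looser pattern of 2 or 3 DOC1 libraries and no lacZ library was met by 2 regions, against 11.5% of all regions. They were chr20:48915182-48916092 in the first dense stretch, with folds of 6.28 in DOC1 1 and 5.48 in DOC1 3, and chr20:49015501-49016202 between the stretches, with folds of 5.14 and 3.97 in the same libraries. The opposite pattern was met by 1 region, against 4.49% of all regions: chr20:49077257-49077525 at the end of the second dense stretch, with folds of 4.00 in lacZ 1 and 5.10 in lacZ 3. The summits of lacZ 1 and lacZ 3 at that region lay 1 bp apart. Of the regions of each DOC1 library, 82.4%, 100% and 73.9% also had a lacZ peak, against 44.3%, 28.8% and 43.7% over the genome. Of those of each lacZ library, 94.6%, 100% and 92.3% also had a DOC1 peak, against 66.9%, 79.9% and 69.6% over the genome.

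At CEBPB itself CHD4 peaks were few. One region lay inside the gene, chr20:48807333-48807633, from 213 to 513 bp after its start, and was found in DOC1 1 alone. That peak had a fold of 6.38 and 22 reads at its summit (exact Poisson 95% interval 13.8 to 33.3, counting error only). The region nearest before the gene, chr20:48803762-48804491, ended 2629 bp before the start. It had folds of 4.19 in DOC1 1 and 6.30 in DOC1 3, against 5.30 in lacZ 1 and 4.86 in lacZ 3, and it was in neither library 2. The fold ranges of both groups overlapped there, so the region next to CEBPB was shared between the states in 4 libraries. An outlying region, chr20:48788628-48788991, was found in DOC1 1 alone, with a fold of 5.24.

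At PTPN1 a CHD4 region lay directly before the gene in 5 libraries. It was chr20:49126282-49126807, which ended 84 bp before the start. Its summits stood 403 and 370 bp before the start in DOC1 1 and DOC1 3, against 409, 370 and 316 bp in the lacZ libraries. The summits thus fell within 93 bp of each other over both states. DOC1 2 had no peak there. The deposited folds were 6.99 and 6.78 in DOC1 1 and DOC1 3, against 12.2, 9.69 and 9.0 in the lacZ libraries, and they did not overlap. Summit reads were 20 and 51 in DOC1 1 and DOC1 3, against 82, 42 and 31 in the lacZ libraries. These reads depend on how deeply each library was sequenced. Inside PTPN1, 1 region was found 30384 bp after the start, chr20:49157275-49157904, with folds of 7.08 in DOC1 3 and 6.26 in lacZ 1.

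To set libraries side by side, the coverage at a summit was expressed in multiples of the lowest background that recurred in that library's list, and is called summit coverage below. The background that the peak caller used at a peak, its local background, was expressed in the same multiples. Before PTPN1, summit coverage was 22.4 and 19.1 in DOC1 1 and DOC1 3, against 32.9, 27.0 and 25.2 in the lacZ libraries. The lower values with DOC1 therefore stood in coverage as well as in fold. The local background was 2.25 in both DOC1 libraries, against 1.93, 1.93 and 1.91 in the lacZ libraries.

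The region before that one showed the same order. It was chr20:49109255-49109922, which ended 16969 bp before the PTPN1 start, and it was present in all 6 libraries. Folds were 7.70, 6.22 and 9.52 in DOC1 libraries and 11.6, 9.30 and 10.9 in lacZ libraries, and overlapped. Summit coverage was 16.8, 13.1 and 18.3 in DOC1 libraries and 28.5, 23.8 and 28.4 in lacZ libraries, and did not overlap. The ratio of the means, 16.1 ± 2.71 over 26.9 ± 2.70 (SD, n = 3 each), was 0.598, which 12.5% of the 518 regions present in all libraries fell below. Both regions just before PTPN1 thus had lower CHD4 coverage in the DOC1 libraries with a peak there, and DOC1 2 had none at the nearer one. Median coverage over the 518 regions was itself lower in DOC1 libraries, at 24.7, 15.4 and 21.3. In lacZ libraries it was 27.5, 25.1 and 28.4. Coverage was not adjusted for this, so a difference particular to these 2 regions was not shown.

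This order was common in the genome. Of the 1402 regions in 5 or 6 libraries, 28.2% had every DOC1 summit coverage below every lacZ one, and 4.07% had it above. In the interval these were 4 and 1 of 20 regions, so the share with lower DOC1 coverage was no larger than elsewhere. Over the 8 interval regions in all libraries, the median ratio of DOC1 to lacZ coverage was 0.901, against 0.772 over all 518. Beside the 2 regions before PTPN1, the regions with lower DOC1 coverage were chr20:49029493-49030149 and chr20:48842493-48843435. At the first of these, 222 kb after the CEBPB start, coverage was 19.1, 15.4 and 21.3 in DOC1 libraries and 21.7, 24.4 and 31.7 in lacZ libraries, where the groups nearly touched. At the other, 35.4 kb after the CEBPB start, it was 13.5, 11.5 and 15.3 in DOC1 libraries and 18.0 and 19.5 in lacZ 1 and lacZ 3. The region with higher DOC1 coverage was chr20:48837799-48839058, 30.7 kb after the CEBPB start. There it was 31.4 and 25.4 in DOC1 1 and DOC1 3 and 23.7, 21.2 and 19.5 in lacZ libraries. These counts moved with single libraries: lower DOC1 coverage was met by 10 regions without DOC1 1 and 7 without DOC1 3, and higher by 4 without DOC1 2, 3 without DOC1 3 and 2 without lacZ 2.

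**Figure D2:**
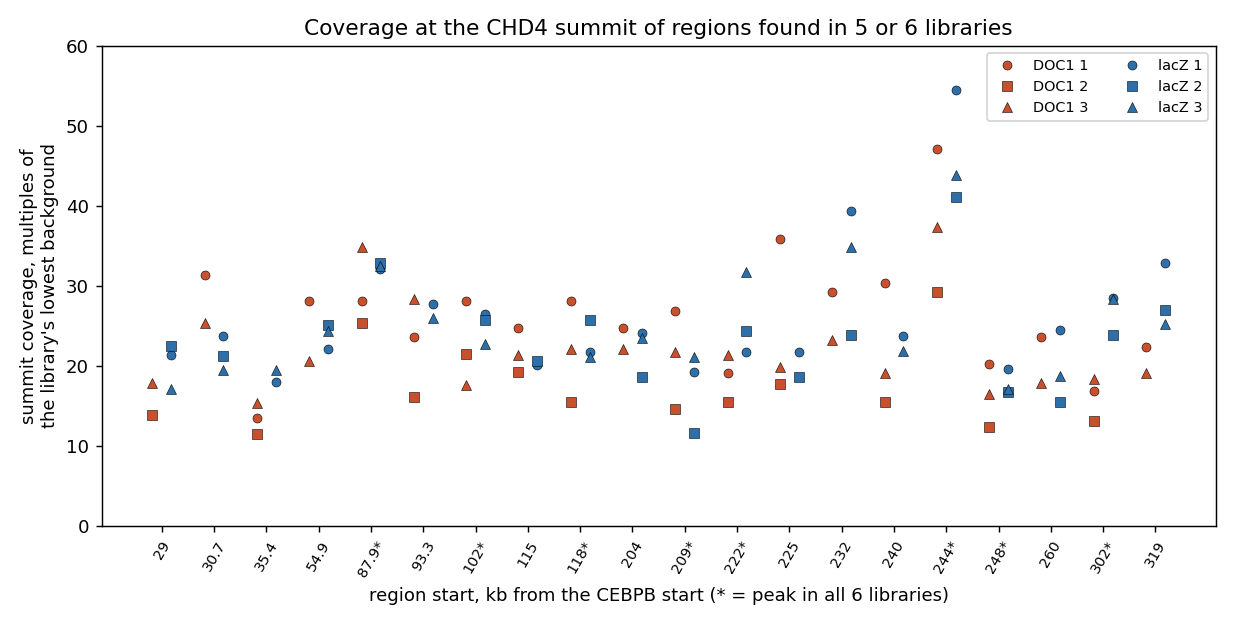
Summit coverage in multiples of each library's lowest recurring background (vertical axis) at the 20 regions found in 5 or 6 libraries, ordered along the chromosome by distance from the CEBPB start in kb. DOC1 libraries are red and to the left of lacZ libraries in blue, with 1 point per library. The region at 244 kb is the highest, and the last 2 regions, just before PTPN1, have every DOC1 point below every lacZ point.

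The first dense stretch, chr20:48894984-48926077 (31.1 kb), held 12 regions with starts a median of 2.22 kb apart. DOC1 libraries had a peak in 7, 5 and 12 of them and lacZ libraries in 8, 4 and 4, with means of 8.0 ± 3.61 and 5.33 ± 2.31 (SD, n = 3 each). The gap between these means exceeded the lacZ SD but not the DOC1 SD, the groups overlapped, and DOC1 3 alone held all 12. The stretch began with chr20:48894984-48896194, present in all 6 libraries. Its folds were 6.81, 7.11 and 10.7 in DOC1 libraries and 7.81, 11.7 and 11.1 in lacZ libraries. Its coverage was 28.1, 25.3 and 34.8 in DOC1 libraries and 32.1, 32.8 and 32.5 in lacZ libraries, close to equal. The lacZ libraries agreed within 1 multiple there while the DOC1 libraries were spread around them.

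Next came chr20:48900406-48901165, absent from lacZ 2 alone. It had folds of 4.87, 3.30 and 4.86 in DOC1 libraries and 5.64 and 4.48 in lacZ 1 and lacZ 3. The 102 kb region, chr20:48908716-48910124, was in all 6 libraries, with folds of 10.5, 9.17 and 8.41 in DOC1 libraries and 6.43, 6.45 and 6.37 in lacZ libraries. All DOC1 folds stood above all lacZ folds there, yet the coverage overlapped, at 28.1, 21.5 and 17.6 in DOC1 libraries and 26.5, 25.7 and 22.7 in lacZ libraries. The 115 kb region, chr20:48921641-48923065, had folds of 8.07, 6.62 and 6.61 in DOC1 libraries and 4.67 and 4.47 in lacZ 1 and lacZ 2. The stretch ended with chr20:48925139-48926077, in all 6 libraries, with folds of 8.36, 5.35 and 7.80 in DOC1 libraries and 4.45, 5.57 and 5.51 in lacZ libraries. Of these, the 102 kb and 115 kb regions had folds without overlap, higher in DOC1, and overlapping coverage.

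The second dense stretch, chr20:49029493-49077525 (48.0 kb), held 14 regions with starts a median of 2.37 kb apart. DOC1 libraries had a peak in 10, 6 and 11 of them and lacZ libraries in 12, 6 and 10, with means of 9.0 ± 2.65 and 9.33 ± 3.06 (SD, n = 3 each). Its strongest region was chr20:49050795-49051956, 244 kb after the CEBPB start. It had the highest summit coverage of the 8 shared regions in each of the 6 libraries. The folds were 11.3, 7.72 and 8.18 in DOC1 libraries and 13.1, 12.2 and 11.2 in lacZ libraries. The summits held 42, 38 and 100 reads in DOC1 libraries and 136, 64 and 54 in lacZ libraries. Exact Poisson 95% intervals of these reads ran from 26.9 to 52.2 for DOC1 2, the lowest, and from 114 to 161 for lacZ 1, the highest, and the reads differ with depth. In coverage, 47.1, 29.2 and 37.4 in DOC1 libraries stood beside 54.5, 41.1 and 43.9 in lacZ libraries, and the groups overlapped.

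The other regions of the second stretch differed in fold in both directions. At chr20:49031862-49032709, 225 kb after the CEBPB start, folds were 10.6, 6.25 and 7.70 in DOC1 libraries and 4.57 and 2.92 in lacZ 1 and lacZ 2. At chr20:49039326-49040709, 232 kb after it, folds were 4.56 and 5.12 in DOC1 1 and DOC1 3 and 11.9, 8.61 and 12.4 in lacZ libraries. These neighbouring regions thus had opposite orders. At chr20:49047281-49048078 folds were 4.72, 3.40 and 4.24 in DOC1 libraries and 5.21 and 5.20 in lacZ 1 and lacZ 3. At chr20:49067041-49068519 folds were 4.87 and 4.17 in DOC1 1 and DOC1 3 and 9.77, 5.96 and 6.53 in lacZ libraries. At chr20:49055210-49056096, in all 6 libraries, folds overlapped, at 7.17, 4.95 and 6.72 in DOC1 libraries and 4.86, 4.61 and 5.16 in lacZ libraries. The region at the start of the stretch, 222 kb after the CEBPB start, had overlapping folds of 6.32, 4.39 and 7.55 in DOC1 libraries and 6.67, 7.35 and 9.34 in lacZ libraries.

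**Figure D3:**
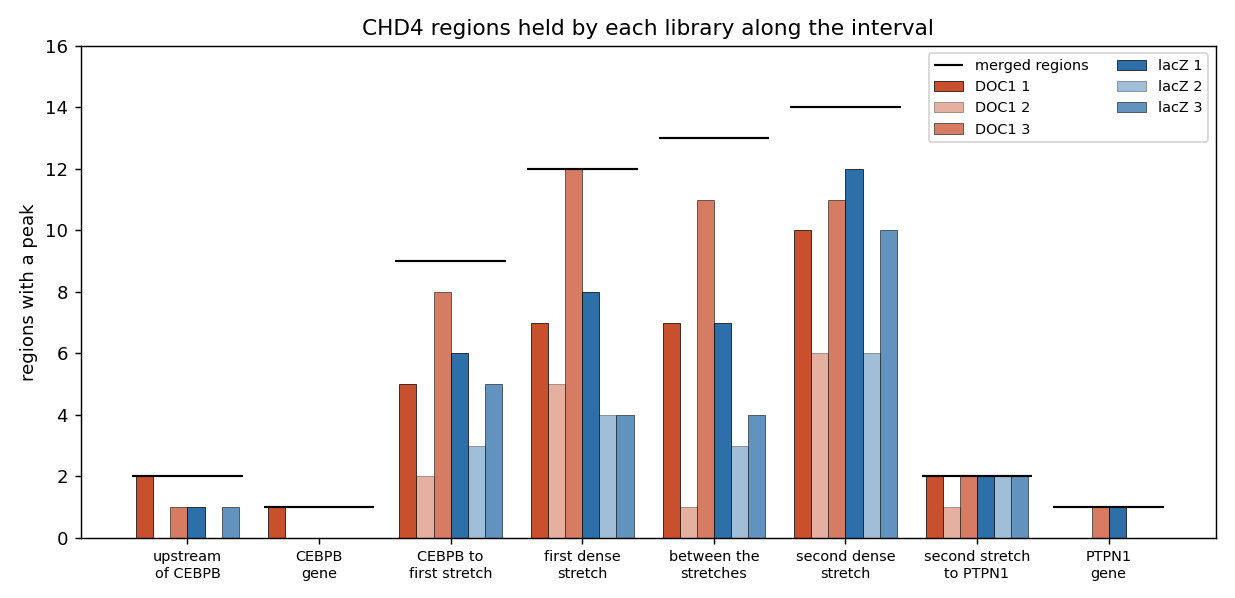
Regions with a peak in each library (bars, vertical axis in regions) in 8 successive parts of the interval, with the DOC1 libraries left of the lacZ libraries and a line at the number of merged regions. DOC1 3 holds all 12 regions of the first dense stretch, against 8, 4 and 4 in the lacZ libraries, while both groups hold 6 to 12 of the 14 regions of the second.

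Over the 20 regions in 5 or 6 libraries, folds did not overlap between the groups at 9. They were higher in DOC1 at 5 regions (against 8.63% of all such regions of the genome) and lower in DOC1 at 4 (against 30.0%). At all 9 the local background differed the opposite way without overlap. The fold is the scaled reads at the summit over that background, each plus 1 and before conversion to multiples of the lowest background. Background and fold are therefore tied by arithmetic. At the 225 kb region, the local background was 2.37, 2.18 and 1.99 in DOC1 libraries and 4.08 and 5.74 in lacZ 1 and lacZ 2, and the coverage overlapped, at 35.9, 17.7 and 19.8 in DOC1 libraries and 21.7 and 18.6 in lacZ 1 and lacZ 2. At the 232 kb region, it was 5.53 and 3.99 in DOC1 1 and DOC1 3 and 2.53, 1.91 and 1.88 in lacZ libraries, and the coverage again overlapped, at 29.2 and 23.2 in DOC1 1 and DOC1 3 and 39.3, 23.8 and 34.9 in lacZ libraries. These opposite fold differences were thus not matched in coverage at the summit.

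None of the 5 regions with higher DOC1 folds had higher DOC1 coverage, and 1 of the 4 with lower DOC1 folds, the region before PTPN1, had lower DOC1 coverage. At the 35.4 kb region folds were 5.59, 5.33 and 7.32 in DOC1 libraries and 4.48 and 4.08 in lacZ 1 and lacZ 3, so the fold was higher with DOC1 while the coverage was lower. The local background there was 1.49, 1.54 and 1.52 in DOC1 libraries and 3.37 and 4.02 in lacZ 1 and lacZ 3. Over the genome, 10.7% of the 121 regions with higher DOC1 folds also had higher DOC1 coverage, and 44.3% of the 420 with lower DOC1 folds also had lower DOC1 coverage. The background differed the opposite way at 82.6% and 69.5% of them. No source used here states which control library gave each background. The part of the background in the fold differences was not tested further. Without DOC1 2, folds were higher in DOC1 at 9 regions, and they were lower in DOC1 at 8 without DOC1 3 and at 7 without lacZ 3.

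**Figure D4:**
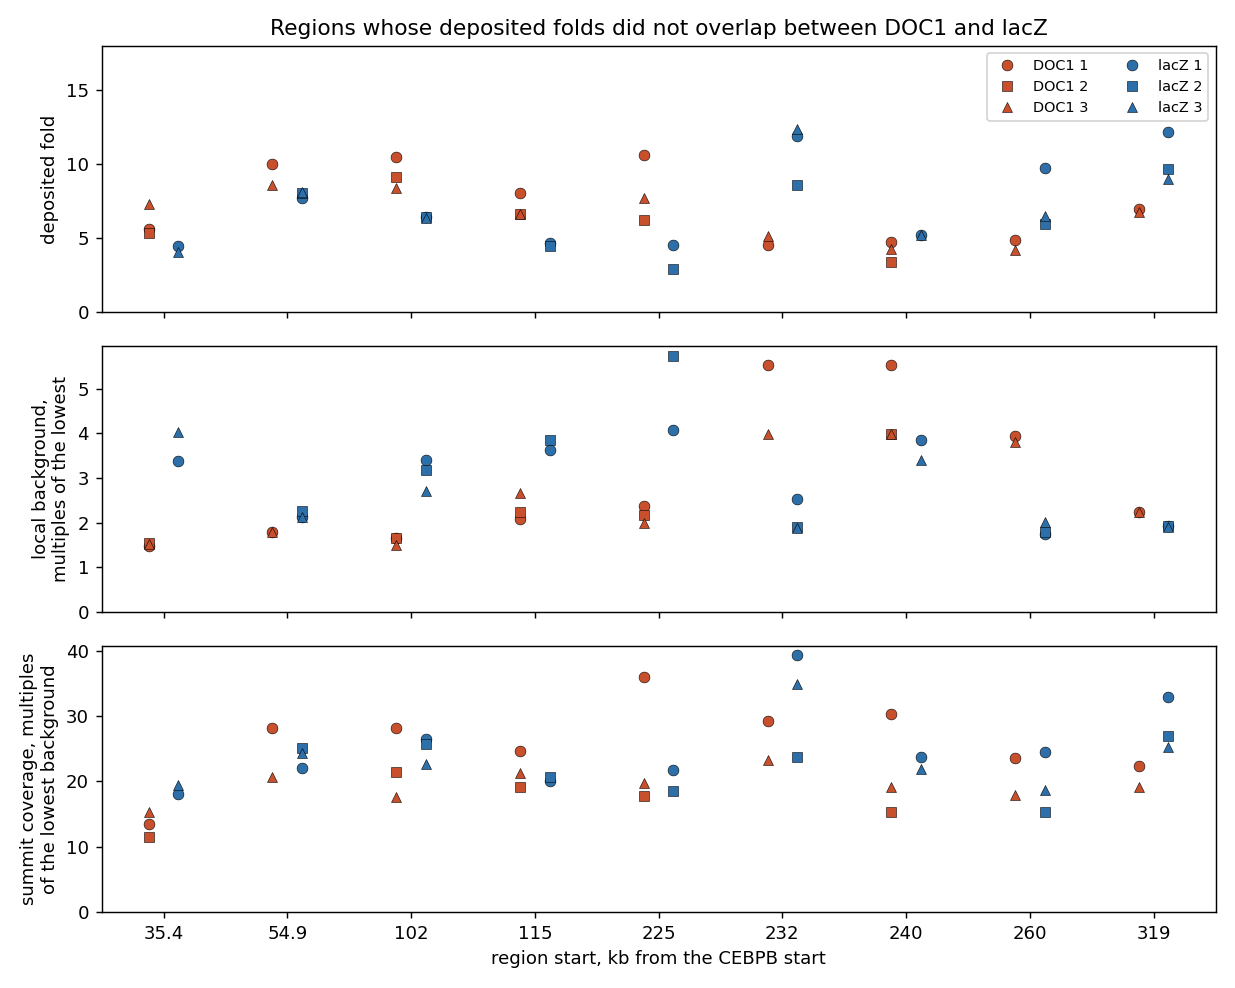
The 9 regions whose folds did not overlap between groups, by distance from the CEBPB start in kb, with DOC1 points left of lacZ points. The upper panel shows the deposited fold, the middle panel the local background and the lower panel the summit coverage, both in multiples of the library's lowest recurring background. Wherever DOC1 folds stand above lacZ folds, DOC1 backgrounds stand below lacZ backgrounds, and the other way round, while the coverage overlaps at 7 of 9.

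Between CEBPB and the first stretch lay 9 regions, of which 4 were in 5 libraries. The nearest to CEBPB of these was chr20:48836073-48836646, with folds of 4.58 and 6.03 in DOC1 2 and DOC1 3 and 8.31, 8.17 and 5.99 in lacZ libraries. The 30.7 kb region had folds of 6.42 and 4.91 in DOC1 1 and DOC1 3 and 7.27, 3.86 and 6.26 in lacZ libraries. Folds of both groups overlapped at these. At chr20:48861981-48862783 folds were 9.99 and 8.62 in DOC1 1 and DOC1 3 and 7.70, 8.07 and 8.09 in lacZ libraries, and did not overlap. Between the dense stretches lay 13 regions. One was in all 6 libraries, chr20:49016603-49017289, with folds of 8.77, 5.75 and 8.71 in DOC1 libraries and 7.94, 5.01 and 8.53 in lacZ libraries. Its coverage was 26.9, 14.6 and 21.7 in DOC1 libraries and 19.2, 11.6 and 21.1 in lacZ libraries, and its ratio of 1.22 was the highest of the 8 shared regions. Library 2 was the lowest of each group there. The region chr20:49011583-49012368, absent from DOC1 2, had folds of 5.85 and 5.09 in DOC1 1 and DOC1 3 and 5.87, 4.07 and 5.05 in lacZ libraries.

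The remaining regions were held by fewer libraries. In 4 libraries were 6 regions. One was the region before CEBPB. Of the others, chr20:48864346-48865097, chr20:48937513-48938328 and chr20:49045446-49046703 were each in DOC1 1, DOC1 3, lacZ 1 and lacZ 3, that is in all but library 2 of each group. The region chr20:49056829-49057753 was in DOC1 2, DOC1 3, lacZ 1 and lacZ 3, with folds of 5.45 and 6.22 in the DOC1 libraries and 2.66 and 4.35 in the lacZ libraries. In DOC1 1 and all lacZ libraries was chr20:49018055-49018646, with folds of 5.51 in DOC1 1 and 5.16, 6.67 and 4.90 in lacZ libraries. All 4 regions in 3 libraries were held by DOC1 1, DOC1 3 and lacZ 1: chr20:48901942-48902625, chr20:48950354-48950915, chr20:48993203-48993854 and chr20:49065097-49065559.

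The 8 regions in 2 libraries were the 3 uneven ones above, the region inside PTPN1, and 4 more held by DOC1 3 and lacZ 1, the longest list of each group. These were chr20:48841140-48841689, chr20:48914360-48914774, chr20:48920421-48921079 and chr20:49049208-49049750. Of the 16 regions in 1 library, DOC1 3 held 10, DOC1 1 held 4, lacZ 1 and lacZ 3 held 1 each, and neither library 2 held any. Those of DOC1 3 had folds from 2.95 at chr20:48883773-48884197 to 6.72 at chr20:48997157-48997596. The other 8 of DOC1 3 began at positions 48861290, 48902897, 48904526, 48910937, 48938603, 48961158, 48965887 and 49028598. DOC1 1 alone had, beside the region inside CEBPB and the outlying one before it, chr20:48876454-48876729 with a fold of 5.03 and chr20:49044221-49044506 with a fold of 5.46. The region of lacZ 1 alone was chr20:49004265-49004548, with a fold of 4.90, and that of lacZ 3 alone was chr20:49073348-49073573, with a fold of 6.12. These numbers ran in the order of list length, though DOC1 1 and lacZ 1, with lists of 7834 and 7027 peaks, held 4 and 1. By group, 14 regions were in 1 DOC1 library alone (25.9%, against 44.0% of all regions). In 1 lacZ library alone were 2 (3.7%, against 12.3%). The cause was not tested.

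Summits were about as close as elsewhere in the most shared regions and farther apart in some others. The choice of the interval did not use summit positions. They lie within the peaks that it did use, so their spans are not independent of that choice. In the 8 regions of all libraries, the summits of the strongest peak of each library spanned a median of 153 bp, against 149 bp over all 518 such regions of the genome. In the 12 regions of 5 libraries they spanned 174 bp, against 160.5 bp over 884. In the 6 regions of 4 libraries they spanned 203.5 bp, against 151.5 bp over 1216, and in the 8 regions of 2 libraries 150.5 bp, against 79.0 bp over 3764. The 4 regions of 3 libraries were narrower, with 93.0 bp, against 133 bp over 1851. Spans of at most 100 bp were found at 2 of 8 regions in 6 libraries, 1 of 12 in 5 and 0 of 6 in 4, against 26.6%, 26.5% and 28.0% of such regions of the genome. Summits of 2 libraries lay a median of 85.0 bp apart within DOC1, 69.0 bp within lacZ and 77.0 bp between the groups. The distance between the states thus stood between those within the groups. The corresponding distances over the genome were 75.0, 56.0 and 67.0 bp. Medians of single library pairs in the interval ran from 32.0 to 115.0 bp within DOC1, 62.0 to 70.5 bp within lacZ and 50.0 to 102.5 bp between the groups. From the median of the other libraries, summits stood 60.5, 50.5 and 81.0 bp away in DOC1 libraries and 68.0, 45.5 and 70.25 bp in lacZ libraries. Over the genome these distances were 60.25, 58.0 and 49.0 bp in DOC1 libraries and 47.0, 44.0 and 50.0 bp in lacZ libraries, so DOC1 3, lacZ 1 and lacZ 3 stood farther from the others in the interval than elsewhere. The means, 64.0 ± 15.5 bp and 61.2 ± 13.7 bp (SD, n = 3 each), differed by 2.75 bp, less than the spread. That difference turned to -1.75 bp without DOC1 1 and to -18.9 bp without DOC1 3, and was 22.2 bp without lacZ 1.

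Single regions ranged from one shared point to several summits. Among regions in 5 or 6 libraries the tightest was chr20:48925139-48926077, where summits stood at 48925590, 48925658 and 48925611 in DOC1 libraries and at 48925618, 48925614 and 48925597 in lacZ libraries, a span of 68 bp. In contrast, the 102 kb region had its strongest summit at 1 of 2 points, which both groups used. It stood at 48909471, 48909493 and 48909052 in DOC1 libraries and at 48909052, 48909067 and 48909480 in lacZ libraries. In lacZ 3, separate peaks stood at both points, with summits at 48909030 and 48909480, folds of 5.57 and 6.37, and 29 and 28 reads. The span of 441 bp thus lay between these 2 points, and it crossed the groups. Only lacZ 3 had a separate peak at each point. The second peak of DOC1 1 had its summit elsewhere, at 48909826, with a fold of 6.01. The widest span among regions in 5 or 6 libraries was 530 bp, at the 115 kb region. At the 244 kb region summits spanned 372 bp, and DOC1 2 had 2 peaks there, with folds of 3.97 and 7.72.

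**Figure D5:**
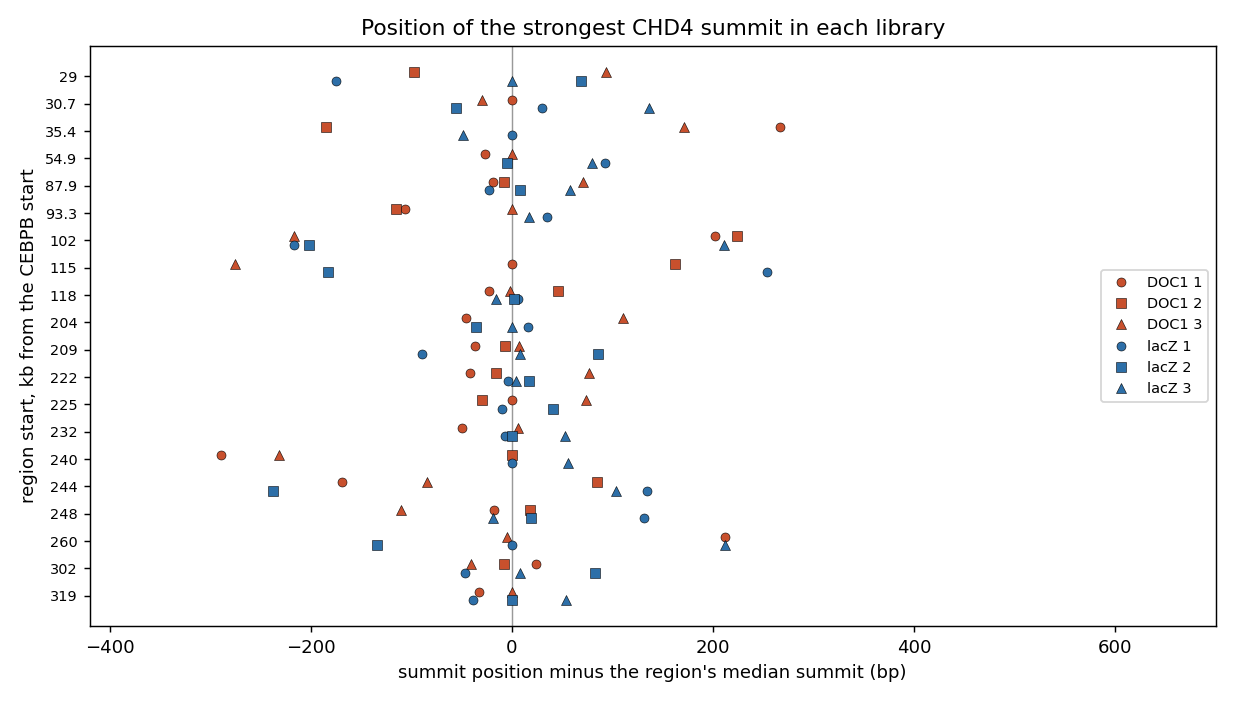
Position of the strongest summit of each library relative to the region's median summit, in bp (horizontal axis), at the 20 regions found in 5 or 6 libraries (vertical axis, region start in kb from the CEBPB start), with DOC1 libraries in red above lacZ libraries in blue. Most points stand near 0 in both groups, while the 102 kb region splits into 2 positions that each hold DOC1 and lacZ libraries.

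The peaks of the interval stood on higher local backgrounds than those of the lists as a whole. The median local background, in multiples of the lowest, was 2.37, 2.25 and 2.25 in DOC1 libraries and 3.18, 2.38 and 2.38 in lacZ libraries, against 1.78, 1.45 and 1.99 over the whole DOC1 lists and 1.70, 1.91 and 2.01 over the whole lacZ lists. On the rest of chromosome 20 it was 2.37, 2.18 and 2.42 in DOC1 libraries and 2.27, 2.27 and 2.04 in lacZ libraries. The DOC1 values of the interval were thus like those of the chromosome, and lacZ 1 stood above the other libraries. Peaks of the interval were wider than the median of their list in all 6 libraries, with medians of 338.5, 310 and 559.5 bp in DOC1 libraries and 494.5, 381 and 312 bp in lacZ libraries, against 289, 284 and 396 bp over the whole DOC1 lists and 398, 318 and 307 bp over the whole lacZ lists. Ranked by fold within their own list, interval peaks had median percentiles of 52.3, 54.5 and 68.5 in DOC1 libraries and 37.8, 59.3 and 43.5 in lacZ libraries. The groups overlapped in these percentiles. The median fold was 5.91, 5.35 and 5.77 in DOC1 libraries and 5.26, 6.56 and 6.01 in lacZ libraries, against 5.82, 5.21 and 5.12 over the whole DOC1 lists and 5.67, 6.15 and 6.26 over the whole lacZ lists. The strongest peak of the interval ranked 107, 57 and 112 by fold in the DOC1 lists and 112, 87 and 154 in the lacZ lists.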

How the data were processed

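The peak lists of 6 CHD4 ChIP-seq libraries from SCC9 cells were used (50 bp single reads and 18 PCR cycles, per the labels' protocols). Per the submitters' processing notes, tools included Trimmomatic 0.33, BWA 0.7.12-r1039, SAMtools 1.2 and MACS2 2.1.1.20160309, with hg19. No source used here states the control or the options of peak calling. The lists were deposited 1 per library, not pooled. Each deposited fold is a ratio of summit coverage to local background, and is the authors' own value for a peak in its list. The deposited −log10 p-value and −log10 q-value, the latter at least 2.01 in every list, give each peak's significance, and the deposited score repeats the q-value.

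Summit reads and local background were solved from the fold and p-value, as MACS2 is known to compute them (tolerance 0.002 reads, 1 scaling factor per library). This solved 100% of peaks in each list, and was checked on simulated data. The median summit held 15, 15 and 34 reads in the DOC1 lists and 38, 27 and 22 in the lacZ lists. List length did not follow these reads in every library: DOC1 1, with 15, had 7834 peaks, and lacZ 2, with 27, had 2812. Why a site passed in 1 library and was missed in another was not tested. The lowest recurring background is the lowest one shared by at least 20 peaks. Where a library had several peaks in a region, that of highest fold gave its values. No molecular identifiers are named, so intervals cover counting error only.

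Groups and replicate numbers came from the sample titles. No test was run across regions. The members and lists were chosen with earlier results of these data known. Named with values are regions in 5 or 6 libraries, regions particular to a group and those over or nearest each gene start; the uneven regions and other positions were added after their values were seen. Peaks of no 2 lists were identical. Alternatives were stricter q-values (−log10 of at least 3), lists of equal length, merging within 500 bp, summits widened by 100 bp and leaving out each library. The software was Python 3.11.15 with scipy 1.17.1, pandas 2.3.3, numpy 2.4.6 and matplotlib 3.10.9.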

Additional observations from a re-analysis of the deposited data

How the results depend on the processing

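Of 130 recomputed values for 13 results, 103 held, 20 moved and 7 reversed. Those on fold and coverage without overlap were added after seeing the data. A count held if it changed by at most 1.5 times. A difference held if it kept its sign and changed by less than the SD between libraries. For peaks, covered length and summit distance that SD (12.7 peaks, 9.64 kb and 14.6 bp) exceeded the difference itself. Large changes in these thus also counted as held, and the total is no measure of robustness. A stricter q-value left 52 regions, 14 of them in 1 library, with folds higher in DOC1 without overlap at 4, and merging within 500 bp left 48 regions, 12 of them in 1 library; every difference kept its sign under both, and no count moved by over 1.5 times. With every list cut to 2812 peaks, the interval held 34 regions in place of 54, 10 in 1 library in place of 16, and 1 in every lacZ and no DOC1 library in place of 0. In those lists folds were higher in DOC1 without overlap at 2 regions in place of 5 and lower at 1 in place of 4, and the difference in the share of peaks reversed to 0.0356 percentage points from -0.126. With summits in place of whole peaks, 26 regions were in 1 library, folds were lower in DOC1 at 2, and the difference in summit distance reversed to -0.167 bp. The cause was not tested beyond the fewer peaks and narrower regions that these settings build in.

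Leaving out each library in turn gave 44 to 54 regions, 8 to 14 in every library, 0 to 2 in every DOC1 and no lacZ library, 0 to 1 in every lacZ and no DOC1 library, and 13 to 21 in 1 library. The value of 14 and that of 2 came without DOC1 2, and that of 1 without DOC1 1 or lacZ 2. The difference in peaks ran from -0.5 (without DOC1 3) to 14 (without DOC1 2), in the share of peaks from -0.151 to -0.102 percentage points, and in covered length from -3.65 kb (without DOC1 3), with -0.416 kb without lacZ 2, to 7.6 kb. The difference in summit distance ran from -18.9 bp (without DOC1 3), with -1.75 bp without DOC1 1, to 22.2 bp (without lacZ 1). Folds were higher in DOC1 at 5 to 9 regions and lower at 4 to 8, and coverage was higher in DOC1 at 1 to 4 and lower at 4 to 10.

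No paired analysis was possible because no result comes from a test. Summits of 15 reads limit what a missing peak shows: a site without a peak in a library was not shown to be unbound there.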
